A study of Mus musculus with 4 samples.

Results

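The 10 genes described here are the Notch receptors Notch1 and Notch2, the ligands Dll1, Dll4 and Jag1, the DNA-binding partner Rbpj, the HES factors Hes1 and Hes6, and the secretory fate factors Atoh1 and Gfi1. They were chosen by name, with earlier results of these data known. All probe sets that the platform annotation gives to these symbols were taken. This gave 18 probe sets for 10 of the 18193 genes with a name on the array. The brightest probe set of a gene, by its mean over the 4 arrays, represents it, and its other probe sets are given beside it.

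The series holds 1 Affymetrix mouse expression array for each of 4 groups of colonic epithelial cells: wild type (WT), Bmi1ΔIEC, Mel18ΔIEC and the double knockout (DKO), which carries both changes. ΔIEC marks loss of the gene in intestinal epithelial cells, and Mel18 is the protein of the gene Pcgf2. Both proteins belong to Polycomb repressive complex 1, which modifies histones and holds developmental genes silent, and the design asks what the colon epithelium expresses without either or both. All animals, wild type included, were C57BL/6 mice aged 6 to 8 weeks that had received azoxymethane, a colon carcinogen, at 10 mg/kg, and after 5 days 3.5% dextran sulfate sodium, which injures the colon lining, for 5 days. Cells were released from the colon with EDTA on day 12. The Cre line behind the deletions, the control alleles of the wild type and the number of mice behind an array are not stated by the labels.

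Notch receptors are activated by Delta-like and Jagged ligands on a neighbouring cell. The receptor is then cleaved, and its intracellular part enters the nucleus and joins Rbpj to switch on target genes such as Hes1. In the intestine Hes1 represses Atoh1: crypt cells with active Notch signalling stay progenitors or become absorptive colonocytes, and cells that express Atoh1 become goblet, enteroendocrine and other secretory cells and display Dll1 and Dll4 to their neighbours.

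RefSeq promoter windows, of which the 250 bases before a gene's start were used (GRCm38.p6), were found for 9 of the 10 members, 13 windows in all. Hes1 had no entry. The Rbpj window is shown because Rbpj is the member whose window holds the core letters that its own protein binds, TGGGAA on either strand, and the Dll1 window because it holds the E box letters CANNTG read by bHLH factors such as Atoh1. The brightest Rbpj probe set, but not the dimmer ones, and Dll1 share the array pattern described further on. So do 40.5% of the 12154 genes compared there, and a link between letters and pattern was not tested. Capitals mark the TGGGAA matches in Rbpj (chr5:53590096-53590345, plus strand) and the CANNTG matches in Dll1 (chr17:15376933-15377182, minus strand), each written 5′ to 3′ along the gene.
Rbpj: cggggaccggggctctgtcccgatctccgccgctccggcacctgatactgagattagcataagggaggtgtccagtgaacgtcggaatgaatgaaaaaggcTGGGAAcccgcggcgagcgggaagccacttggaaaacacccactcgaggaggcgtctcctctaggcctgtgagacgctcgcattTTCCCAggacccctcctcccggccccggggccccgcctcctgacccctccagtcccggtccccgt
Dll1: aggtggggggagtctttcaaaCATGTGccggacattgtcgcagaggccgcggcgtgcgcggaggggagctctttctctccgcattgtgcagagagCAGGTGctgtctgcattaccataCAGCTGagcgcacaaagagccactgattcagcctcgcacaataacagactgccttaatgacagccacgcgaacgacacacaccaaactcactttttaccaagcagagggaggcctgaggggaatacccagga
The Rbpj window holds 2 TGGGAA matches, its other window, which overlaps this one, holds 1, and no window of the other 8 members held one. Of all 32851 windows of this length, 21.6% hold TGGGAA on either strand. The Dll1 window holds 3 CANNTG matches, as does 1 of the windows of Hes6, and the other Dll1 window holds 1. Of the members' 13 windows 8 hold at least 1, against 66.2% of all windows. The N box CACNAG, the letters that HES repressors read, was found in 4 of the 13 windows (of Notch1, Notch2, Dll4 and Hes6), against 36.7% of all windows. The Atoh1 window held none of these motifs. The E and N boxes cannot both fit the same run of bases, because their fixed letters differ. A match is only a description of the letters.

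Values are intensities from the authors' RMA processing, in intensity units, and differences are log2 of 1 array over another. With 1 array per group there is no spread between replicates, no difference has a replicate check, and no test, standard deviation or order beyond the values themselves can be given. A gene is counted as higher or lower when the difference was 2-fold or more and the brighter of the arrays compared was at or above the floor of 33.4 units, the median of all probe-set values. The 3 comparisons with wild type share the wild-type array, so their values are not independent of each other. All 10 members lay above the floor on all 4 arrays. Among the genes above the floor on every array, the median difference from wild type was 0.22 for the Bmi1-labelled array, 0.15 for the Mel18-labelled one and -0.0042 for the DKO-labelled one. Values relative to that shift are called centred.

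The label check went against the Bmi1 label. The brightest Bmi1 probe set read 116 units in wild type, 334 and 160 on the arrays labelled Bmi1 and Mel18, and 432 on the DKO-labelled array, which goes against a loss of its transcript. Pcgf2 read 30.2, 33.4, 39.8 and 32.0 units in that order. These values lie near the floor, and neither the Mel18-labelled nor the DKO-labelled array was below wild type. The Mel18 label is therefore not borne out either, but wild type itself lay under the floor, so a loss could hardly show. The labels do not say where the deleted exons lie relative to the probes, so the arrays are named by their labels. Epithelial identity was plain on every array, with all 14 epithelial genes above the floor, none past 2-fold in any comparison with wild type, and Epcam between 9819 and 10930 units. Centred, their medians were -0.39 on the Bmi1-labelled, -0.24 on the Mel18-labelled and 0.14 on the DKO-labelled array. None, 3 and 11 of the 14 were then above wild type.

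Hes1 and Atoh1, the repressor and its target, were both brighter on the 2 single-knockout arrays than on the wild-type and DKO-labelled arrays. Hes1 was the only member past 2-fold against wild type. Dll1 and Rbpj were likewise brightest on the single-knockout arrays, Notch1 stood out by a low value on the DKO-labelled array, and Notch2, Dll4 and Jag1 differed little. On the Bmi1-labelled array 1 of 10 members was higher and none lower, where 5.76% of 11934 genes were higher and 2.86% lower. On the Mel18-labelled array 1 of 10 was higher and none lower, where 3.15% of 11862 genes were higher and 2.50% lower. On the DKO-labelled array none passed in either direction, where 2.13% of 11853 genes were higher and 2.19% lower. These counts are near the background, and centred on the genes above the floor no member passed in any comparison with wild type.

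**Figure D1:**
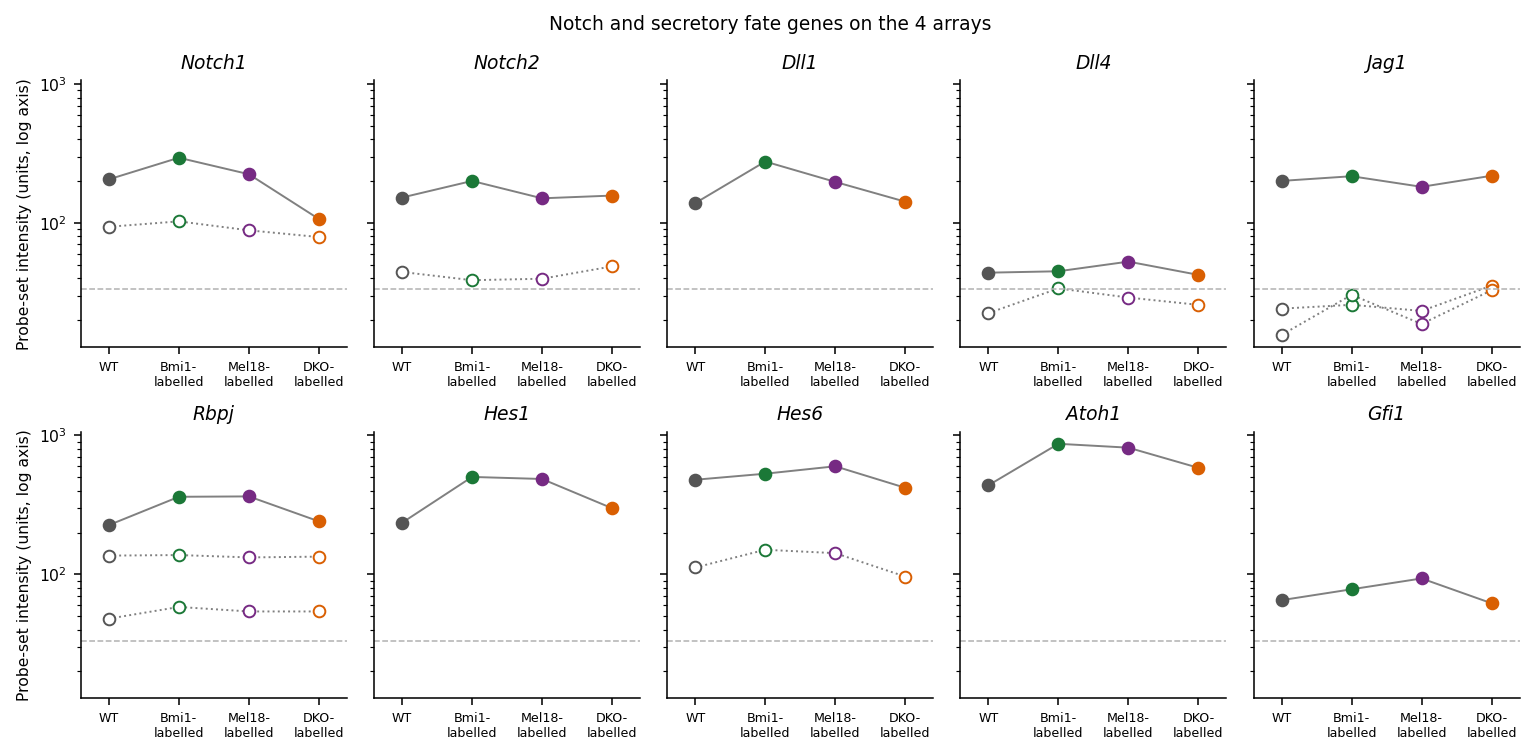
Intensity (units, log axis) of every probe set of the 10 genes on the 4 arrays. Filled points joined by solid lines are the probe set that represents the gene, open points are its other probe sets, and the dashed line is the floor of 33.4 units. Hes1, Atoh1, Dll1 and the brightest Rbpj probe set are highest on the 2 single-knockout arrays, whereas the other 2 Rbpj probe sets are nearly level.

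Notch1, the main Notch receptor of crypt progenitors together with Notch2, read 206 units in wild type, 295 on the Bmi1-labelled, 224 on the Mel18-labelled and 107 on the DKO-labelled array. The DKO-labelled array was thus the lowest, 0.95 below wild type on the log2 scale (-0.95) and short of 2-fold. Against the single-knockout arrays Notch1 lay at -1.47 (Bmi1-labelled) and -1.07 (Mel18-labelled), and it was the only member past 2-fold in either comparison. That is 1 of 10 members lower and none higher in both, where 7.96% of genes were lower and 4.30% higher against the Bmi1-labelled array and 4.53% lower and 3.84% higher against the Mel18-labelled array.

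This Notch1 result rests on 1 of its 2 probe sets. The dimmer one read 93.8, 103, 88.5 and 79.1 units in wild type, Bmi1-labelled, Mel18-labelled and DKO-labelled cells, so the DKO-labelled array was again the lowest but only by -0.25 against wild type, -0.38 against Bmi1-labelled and -0.16 against Mel18-labelled. With the mean over both probe sets the differences from the single-knockout arrays were -0.92 and -0.62, and with arrays centred on the genes above the floor the second was -0.92, so both counts of 1 become 0 under the first setting and the second count under the other. With 16 units added before log2, the difference from the Mel18-labelled array was -0.97.

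Notch2 read 152, 201, 150.4 and 157 units in wild type, Bmi1-labelled, Mel18-labelled and DKO-labelled cells. The Bmi1-labelled array was highest at 0.40 above wild type, and the other 3 lay within 0.07 of each other. Its dimmer probe set had another order, 44.3, 38.7, 39.6 and 48.6 units, with the Bmi1-labelled array lowest, so the probe sets of Notch2 disagree in direction.

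Among the ligands, Dll1, the Delta-like ligand displayed by secretory progenitors, differed most. Its single probe set read 139 units in wild type, 277 on the Bmi1-labelled, 198 on the Mel18-labelled and 142 on the DKO-labelled array. The Bmi1-labelled array was the highest at 0.99 above wild type, 1.99-fold and just under the 2-fold rule, the Mel18-labelled array followed at 0.51, and the DKO-labelled array lay within 0.03 of wild type.

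Dll4, the other Delta-like ligand of secretory cells and also a ligand of endothelial tip cells, was dim at 43.8, 44.9, 52.6 and 42.3 units in the same order. The arrays lay close together, with a ratio of 1.25 between the highest and the lowest. A second Dll4 probe set lay mostly under the floor, at 22.4, 33.8, 29.0 and 25.7 units. Jag1, a ligand of the Jagged class, read 201, 217, 182 and 219 units, a ratio of 1.20 between the extremes, and unlike the Delta-like ligands it was lowest on the Mel18-labelled array and highest on the DKO-labelled array. Its 2 dimmer probe sets were under the floor on all arrays except the DKO-labelled one, where the brighter of them reached 35.3 units.

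Rbpj, the transcription factor through which all Notch receptors act, read 226 units in wild type, 362 on the Bmi1-labelled, 364 on the Mel18-labelled and 241 on the DKO-labelled array. Both single-knockout arrays were high, at 0.68 and 0.69 above wild type, and the DKO-labelled array was at 0.09. The other Rbpj probe sets did not show this. One read 136, 138, 132 and 134 units, and the dimmest read 47.9, 58.2, 54.0 and 54.0 units. The probe sets of Rbpj therefore disagree, and which of them follows the full transcript was not tested.

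Hes1, the Notch target that represses Atoh1, read 235 units in wild type, 503 on the Bmi1-labelled, 486 on the Mel18-labelled and 299 on the DKO-labelled array. The single-knockout arrays stood at 2.14 and 2.07 times wild type, 1.10 and 1.05 on the log2 scale, and the DKO-labelled array at 0.35. Against the DKO-labelled array both single-knockout arrays were higher too, by ratios of 1.68 and 1.62. Centred on the genes above the floor, Hes1 lay at 0.88 and 0.90 above wild type and no longer passed 2-fold. Quantile normalization gave 0.98 and 0.96.

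Hes6, a HES-related factor that opposes Hes1 and is found in cells leaving the progenitor state, read 480.0, 531, 600.0 and 420.2 units in wild type, Bmi1-labelled, Mel18-labelled and DKO-labelled cells. The Mel18-labelled array was highest and the DKO-labelled array lowest, with a ratio of 1.43 between them. This probe set is of a type that may cross-hybridise (_x_at). The other Hes6 probe set (_a_at) read 112, 150.3, 142 and 96.4 units and also had both single-knockout arrays above the other 2.

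Atoh1, the factor required for all secretory lineages of the intestine, read 438 units in wild type, 871 on the Bmi1-labelled, 817 on the Mel18-labelled and 585 on the DKO-labelled array. Both single-knockout arrays were high, at 1.99 and 1.87 times wild type (0.99 and 0.90 on the log2 scale), and the DKO-labelled array was between at 1.34 times. Atoh1 and Dll1 are the members just under the 2-fold rule on the Bmi1-labelled array, and with each array centred on its median both passed it, at 1.09 each.

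Gfi1, which acts after Atoh1 to favour goblet and Paneth over enteroendocrine fate and is also expressed by lymphoid and myeloid cells, was dimmer. It read 65.2, 78.0, 93.4 and 61.9 units, with the Mel18-labelled array highest at 0.52 above wild type and the DKO-labelled array lowest at -0.07.

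Across the 10 members the median difference from wild type was 0.46 for the Bmi1-labelled, 0.41 for the Mel18-labelled and 0.04 for the DKO-labelled array. Over all genes tested the medians were 0.13, 0.07 and -0.01. All 10 members were above wild type on the Bmi1-labelled, 8 on the Mel18-labelled and 6 on the DKO-labelled array. Centred on the genes above the floor, these were 7, 7 and 6 members, with medians of 0.24, 0.26 and 0.04. The signs that turned were those of Dll4, Jag1 and Hes6 on the Bmi1-labelled array and of Notch1 on the Mel18-labelled array.

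Between the 2 single-knockout arrays no member differed 2-fold, where 0.882% of genes were higher and 0.522% lower on the Bmi1-labelled array. Dll1 differed most, at 0.49 higher on the Bmi1-labelled array, and Gfi1 was the lowest at -0.26. Hes1, Atoh1 and Rbpj each differed by at most 0.09 between these 2 arrays.

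Both single-knockout arrays were above both other arrays for 8 of the 10 members (Notch1, Dll1, Dll4, Rbpj, Hes1, Hes6, Atoh1 and Gfi1), whereas 40.5% of the 12154 genes that reached the floor on any array had this order. This order and the non-additive term that follows were added after the values were seen. The shares of all genes beside them are therefore a description and lend the pattern no support. With arrays centred on the genes above the floor, 5 members kept it (Dll1, Rbpj, Hes1, Atoh1 and Gfi1), against 24.3% of genes. The gap was at least 1.5-fold for 2 members, Hes1 with a lowest single-knockout value 1.62 times the higher of the other 2 and Rbpj with 1.503 times, and for 5.31% of all genes. Centred, no member had such a gap (0.53 for Hes1 and 0.37 for Rbpj on the log2 scale), against 2.67% of genes.

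The same order can be put as the difference that goes with 1 label on 2 backgrounds, which share no array. Neither label is borne out by the probe set of its gene. Pcgf2 lay too near the floor to show a loss, and where the deleted exons lie is not stated. Going from wild type to the Bmi1-labelled array, Hes1 was 1.10 higher, and going from the Mel18-labelled to the DKO-labelled array it was lower at -0.70. For Atoh1 these differences were 0.99 and -0.48, for Dll1 0.99 and -0.47, for Rbpj 0.68 and -0.60 and for Notch1 0.52 and -1.07. The non-additive term, DKO minus both single knockouts plus wild type, would be 0 if the 2 differences from wild type added up. It was -1.80 for Hes1, -1.59 for Notch1, -1.47 for Atoh1, -1.47 for Dll1 and -1.27 for Rbpj. It was -1 or less for these 5 of 10 members and at least 1 for none, where 18.6% of genes had -1 or less and 8.70% at least 1. With the mean over probe sets 3 members were at -1 or less (Dll1, Hes1 and Atoh1), where 14.97% of genes were, and centred 4 were (Notch1, Dll1, Hes1 and Atoh1), where 10.1% of genes were. The other 5 members lay between -0.85 (Gfi1) and 0.15 (Jag1), and the median of all genes was -0.21.

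**Figure D2:**
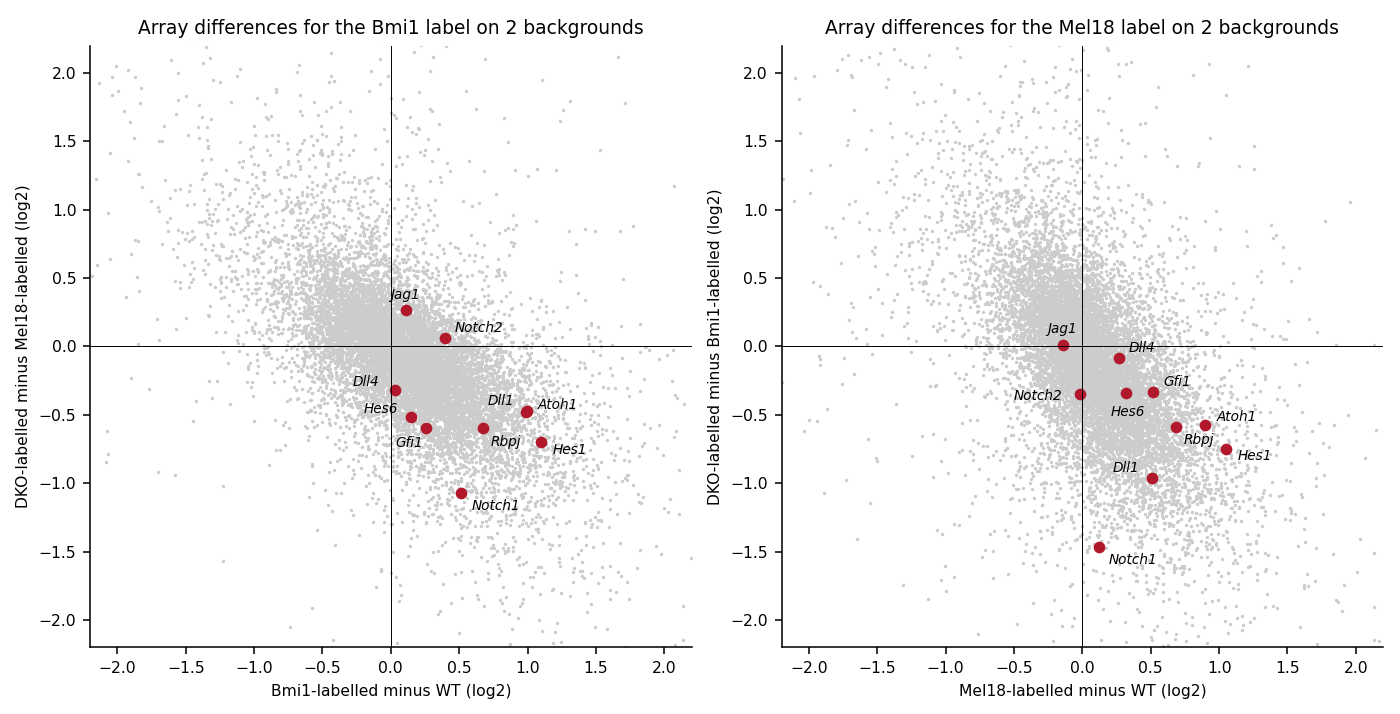
Log2 difference of arrays for the Bmi1 label (left) and the Mel18 label (right), on the wild-type background (x axis) and on the other knockout's background (y axis). Red points are the 10 genes, grey points all other genes that reached the floor on any array, and a few grey points lie outside the axes. All members but Notch2 and Jag1 lie to the right of 0 and below 0 in both panels, Notch1 lowest of them. So do 40.5% of all genes that reached the floor on any array.

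Other genes of the pathway were read from a list of 68 genes, of which 64 had a probe set with a name here. On the Bmi1-labelled array 2 of 53 tested were higher and none lower, on the Mel18-labelled array 1 of 52 and none, and on the DKO-labelled array 1 of 52 and none. The shares of all genes higher were 5.76%, 3.15% and 2.13%, and those lower 2.86%, 2.50% and 2.19%. The median differences from wild type were 0.05, 0.09 and 0.01, against 0.46, 0.41 and 0.04 for the 10 members. Over all genes tested the medians were 0.13, 0.07 and -0.01. Centred, those of the pathway genes were -0.17, -0.08 and -0.01, and those of the members 0.24, 0.26 and 0.04. Dtx4, a ubiquitin ligase of the Deltex class, read 211 units in wild type and 475 on the Bmi1-labelled array (1.17), and Cir1, a corepressor that binds Rbpj, read 90.2 and 182 (1.02). Centred on the genes above the floor neither passed. Tle3, a Groucho corepressor that HES proteins recruit, read 127, 208, 284 and 108 units in wild type, Bmi1-labelled, Mel18-labelled and DKO-labelled cells and was the gene higher on the Mel18-labelled array (1.16). Neurl3 of the Neuralized class read 271, 201, 278 and 740 units and was the gene higher on the DKO-labelled array (1.45).

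By role, the pathway was uneven. Of the Notch targets beside Hes1, Nrarp, a feedback inhibitor of the receptor's nuclear complex, read 239, 434, 361 and 319 units in wild type, Bmi1-labelled, Mel18-labelled and DKO-labelled cells (0.86, 0.60 and 0.42), which is the order of arrays seen for Hes1. Hes5 and Heyl, targets used in other tissues, read 0.13 and 0.22 below wild type on the Bmi1-labelled array (-0.13 and -0.22) and were also lower on the other 2. Hey1, Hey2 and Olfm4 did not reach the floor on any array. The proteases were close to wild type on every array: none of 8 passed 2-fold, and Adam10, which makes the first ligand-induced cut, read 1270, 1192, 1209 and 1219 units. The receptor Notch4, known from endothelium, was lower than wild type on all 3 arrays (-0.66, -0.79 and -0.96) without passing 2-fold. Mib1, the ligase that lets ligand-bearing cells signal, read 216, 339, 302 and 177 units, and the corepressor component Sap30 read 147, 272, 230.2 and 122 units. Of 53 pathway genes, 8 had a non-additive term of -1 or less (Mib1, Neurl1b, Dtx4, Cir1, Sap30, Nrarp, Myc and Tle3) and 1 had at least 1 (Neurl3). The share of all genes at -1 or less, 18.6%, was higher than that of these 53, and centred 3 of 54 pathway genes were, where 10.1% of genes were.

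**Figure D3:**
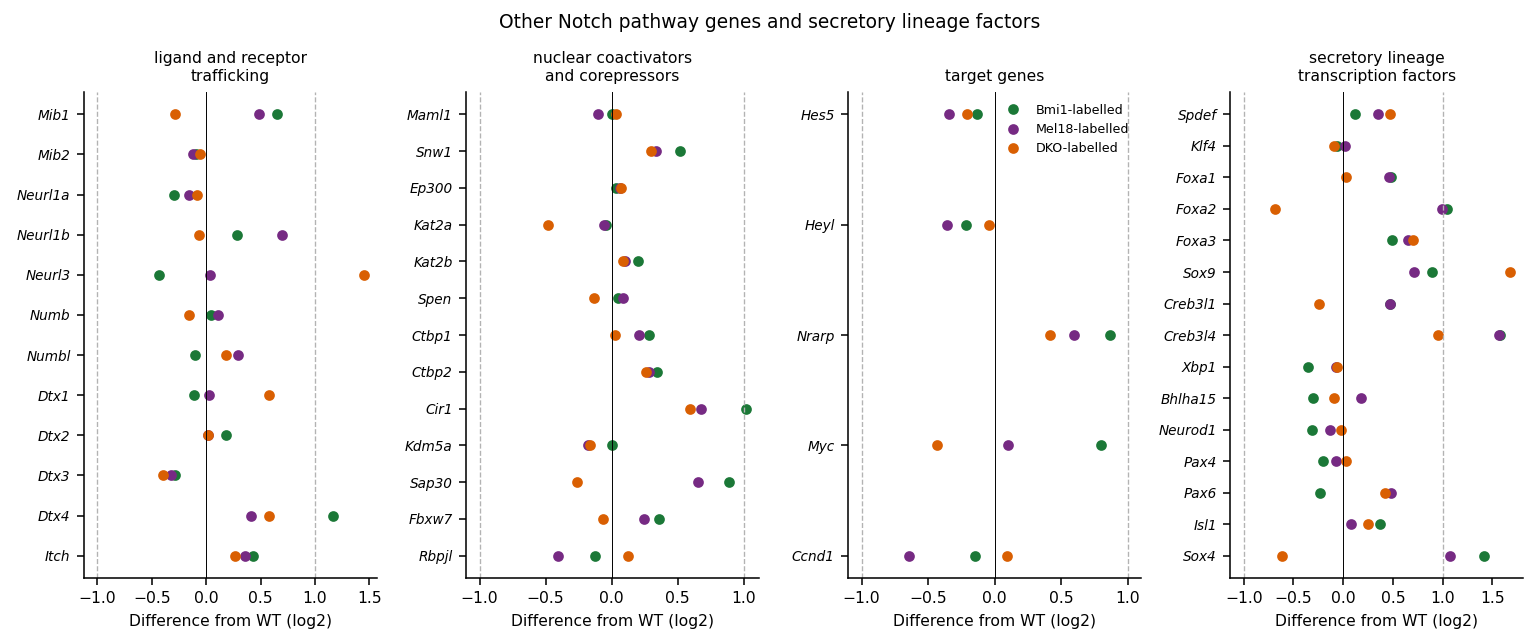
Log2 difference from wild type of Notch pathway genes in 3 roles and of secretory lineage transcription factors, for genes that reached the floor on any array. Points are the Bmi1-labelled (green), Mel18-labelled (purple) and DKO-labelled (orange) arrays, and dashed lines mark 2-fold. Foxa2, Sox4, Sap30 and Mib1 have green and purple points to the right of 0 and orange points to the left, while Sox9 and Neurl3 are farthest right on the DKO-labelled array.

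The factors that act beside or after Atoh1 in the secretory lineages had mixed values. Of the secretory lineage transcription factors on the list, 3 of 14 tested were higher on the Bmi1-labelled, 2 of 15 on the Mel18-labelled and 1 of 14 on the DKO-labelled array, and none was lower in any of them. The shares of all genes higher on these arrays were 5.76%, 3.15% and 2.13%, and those lower 2.86%, 2.50% and 2.19%, which are also the background of the cell type lists that follow. Centred, 2 of 14, 1 of 15 and 1 of 16 factors were higher. Creb3l4, a membrane-bound factor found in secretory cells, read 52.4, 156, 155 and 101 units in wild type, Bmi1-labelled, Mel18-labelled and DKO-labelled cells (1.57, 1.56 and 0.95). Sox4, which is active in early secretory progenitors, read 271, 723, 573 and 177 units (1.42, 1.08 and -0.61). Foxa2, a factor of goblet and enteroendocrine cells, read 438, 900, 874 and 272 units (1.04, 1.00 and -0.69, the second just short of 2-fold), and centred on the genes above the floor neither Foxa2 on the Bmi1-labelled array nor Sox4 on the Mel18-labelled array passed. Sox9, a crypt and Paneth cell factor, was highest on the DKO-labelled array at 541 units against 169 in wild type (1.68). Spdef, the goblet cell factor that follows Atoh1 and Gfi1, read 219, 238, 279 and 304 units, and Klf4, of mature goblet cells and colonocytes, 7067, 6765, 7150.0 and 6653 units. Neurog3, Insm1 and Gfi1b did not reach the floor on any array.

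Products of secretory cells were high on different arrays. Of 18 goblet cell products tested, 1 was higher and 2 lower on the Bmi1-labelled, 1 and 1 on the Mel18-labelled, and 2 and 2 on the DKO-labelled array. Centred, these were 1 and 3, none and 1, and 2 and 2. Muc2, the gel-forming mucin, read 11596, 6488, 11277 and 14180 units, so the Bmi1-labelled array with the highest Atoh1 had the lowest Muc2, which centred on the genes above the floor was also past 2-fold lower there. Reg4, a product of goblet and deep crypt secretory cells, read 2261, 5284, 3983 and 2776 units, which is the order seen for Atoh1. Retnlb, with the largest difference of this list, went the other way at 2665, 116, 298 and 716 units (-4.52, -3.16 and -1.90). Fcgbp was also lower on the Bmi1-labelled array (-1.17). On the DKO-labelled array Capn9 (1.31) and Clca1 (1.04) were higher and Ang4 was lower (-2.29). Of 7 Paneth and deep crypt secretory markers, 2 were higher and 3 lower on the Bmi1-labelled, 2 and 1 on the Mel18-labelled, and 1 and 1 on the DKO-labelled array (centred, 2 lower on the Mel18-labelled array). Kit, the receptor that marks deep crypt secretory cells, read 73.8, 259, 190 and 89.9 units (1.81, 1.36 and 0.28). Lyz1 (-1.11), Mmp7 (-1.23) and Pla2g2a (-2.23), Paneth cell products, were lower on the Bmi1-labelled array. They were not lowest there alike. Centred, in the order Bmi1-labelled, Mel18-labelled and DKO-labelled, Lyz1 stood at -1.32, -0.26 and 0.73 and Mmp7 at -1.45, -2.07 and -0.79. Pla2g2a stood at -2.44, -1.09 and -3.91, and Clps of the same list was higher on each (1.85, 1.46 and 1.59). Enteroendocrine products had 6 of 15 higher on the DKO-labelled array, such as Chga at 1.26 and Sst at 1.33, while 1 of 14 was higher and 2 lower on the Bmi1-labelled array and none of 14 passed on the Mel18-labelled array. Centred, the 2 single-knockout arrays had none higher and 2 of 14 lower each. Tuft cell markers had none of 9 past 2-fold on either single-knockout array and none of 8 on the DKO-labelled array (centred, Alox5ap was lower on the Mel18-labelled array), and Dclk1, the tuft cell kinase, read 49.6, 98.9, 62.4 and 50.3 units.

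Of the absorptive colonocyte markers, the cells that form where Hes1 keeps Atoh1 off, none of 19 was higher and 2 were lower on the Bmi1-labelled, 2 and 1 on the Mel18-labelled, and 4 and 3 on the DKO-labelled array. Centred, these were none and 3, 1 and 2, and 4 and 3. Crypt base stem cell markers had 3 of 12 higher and 1 lower on the Bmi1-labelled, 2 and 1 on the Mel18-labelled, and 2 of 11 higher and 3 lower on the DKO-labelled array, and centred 1 and 1 on the Mel18-labelled array with the other counts as before. Both single-knockout arrays were above both others for 9 of 12 of these markers (centred, 7), beside 40.5% of all genes (centred, 24.3%).

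Markers of other cells and of cell division differed between the same arrays. The summed level of the neutrophil list was 2073 units in wild type, 262 on the Bmi1-labelled, 385 on the Mel18-labelled and 2015 on the DKO-labelled array, with 4 of 7, 4 of 7 and 0 of 8 markers lower than wild type (centred, 5, 5 and 0). The macrophage and dendritic list summed to 8832, 5870, 3500 and 7344 units, with 9, 4 and 0 of 15 lower (centred, 9, 6 and 0). Its median differences from wild type were -1.06, -0.66 and 0.16. The median thus put the Bmi1-labelled array lowest, and the sum the Mel18-labelled one. The fibroblast list summed to 4806, 2128, 4813 and 6948 units, with 6, 0 and 0 of 13 lower (centred, 8, 0 and 0). T and NK cell markers summed to 1262, 926, 785 and 2190 units, with 1 and 3 of 10 lower on the single-knockout arrays (centred, 2 and 3) and 3 of 11 higher on the DKO-labelled array. The endothelial list summed to 644, 589, 588 and 710 units with none past 2-fold in any comparison with wild type, and 9 of its 14 genes reached the floor on at least 1 array. Of its defining markers, Kdr read 58.1 to 79.2 units, Cdh5 reached the floor on the DKO-labelled array alone (36.8 units), and Pecam1, Tek and Tie1 were under it on all arrays. Proliferation genes summed to 7672, 6785, 5052 and 3138 units, and 13 of 18 were lower on the DKO-labelled array, where Notch1 was lowest. Of the high single-knockout values of Hes1, Atoh1, Dll1 and Rbpj and the low Notch1 value on the DKO-labelled array, the part that these differences in cell content play was not tested. In such bulk samples fewer cells of a type and less RNA per cell cannot be told apart.

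**Figure D4:**
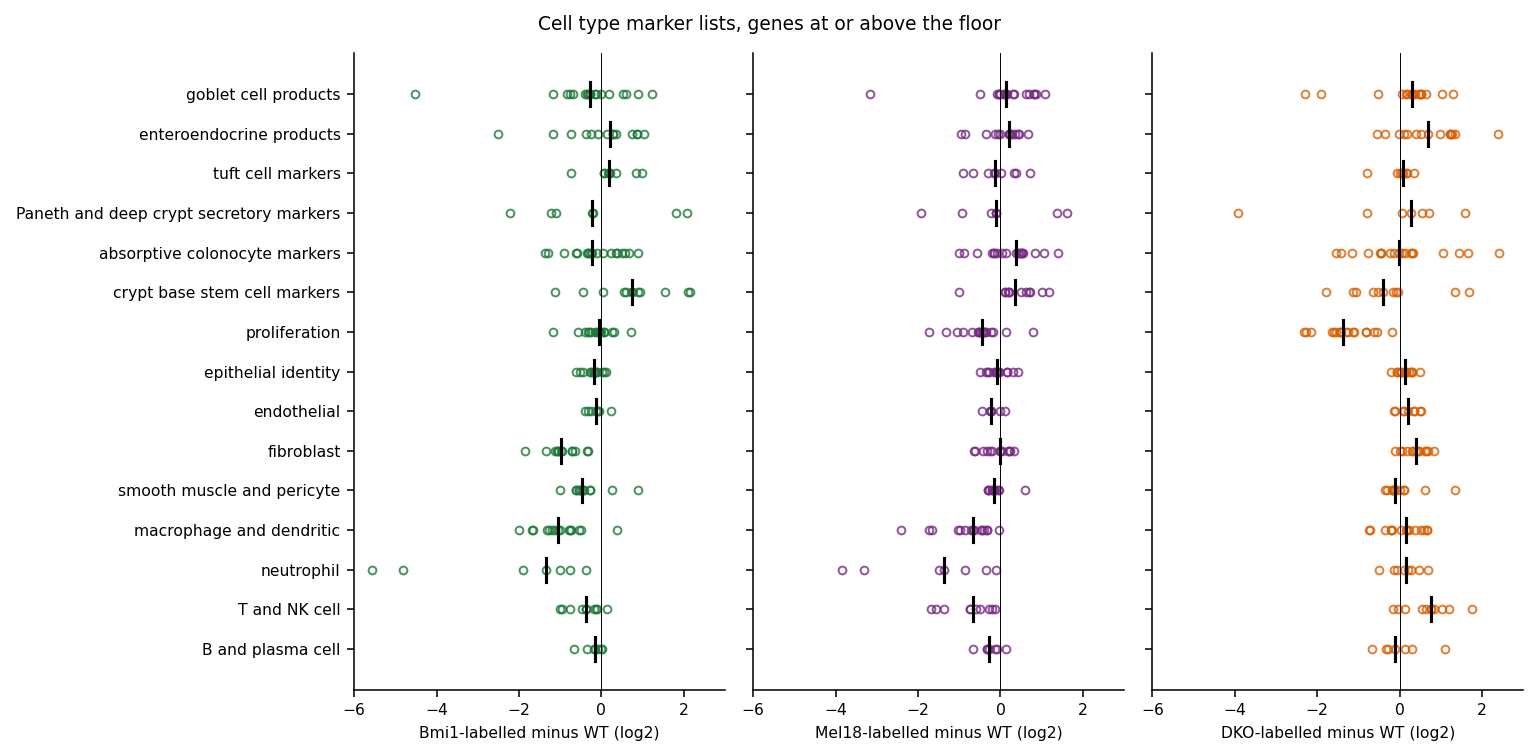
Log2 difference from wild type of the genes of 15 marker lists, 1 panel for each knockout-labelled array. Circles are genes at or above the floor in that comparison and black bars their medians. The medians of neutrophil and macrophage markers lie left of 0 on both single-knockout arrays, and proliferation genes lie left of 0 on the DKO-labelled array. The medians of epithelial identity genes, not centred, are -0.17, -0.09 and 0.14 in the 3 panels.

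Genes with the profile most like a member's were read for Hes1 and Notch1, the members that spanned at least 2-fold over the 4 arrays. Likeness was the largest deviation over the 4 arrays between log2 values centred on each gene's mean, among 11638 other genes. Nearest to Hes1 were Yipf4, with a largest deviation of 0.03, Abhd14b and Crebl2 with 0.06 each and Kdsr with 0.06. Yipf4 read 166, 346, 340.1 and 205 units in wild type, Bmi1-labelled, Mel18-labelled and DKO-labelled cells. Nearest to Notch1 were the mitotic kinesin Kif11 (0.04), Hopx (0.05), the DNA polymerase delta subunit Pold2 (0.07) and Yars2 (0.09). Kif11 read 60.3, 90.5, 67.9 and 32.5 units. With only 4 arrays, near profiles are a description.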

How the data were processed

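The authors deposited 1 intensity per probe set and array. Per the submitters' processing notes the tools were RMA and Affymetrix Expression Console, without a version, and it is unknown here if all 4 arrays went through RMA jointly. The deposited intensities are on a linear scale from 3.25 to 22803 units. Log2 was taken without a pseudocount or further scaling. The platform annotation names 1 gene for 34945 of 45037 probe sets and several for 932, and 9160 are unnamed here. Symbols were updated through gene identifiers for 34741 (assembly GRCm38.p6).

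Each gene took its probe set with the highest mean log2. With 1 array a group no test was run and there is no p-value, so precision is limited by the array number. Members, gene lists and rules were chosen with earlier results of these data known. All 10 members were named, and of other lists up to 6 genes past 2-fold and 2 others each, and some more were named for their role after their values were seen. Alternatives were another probe set summary, floor, scaling, fold and probe set types, and 16 units added before log2. Work was done in Python 3.11.15 with pandas 2.3.3 and numpy 2.4.6.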

Additional observations from a re-analysis of the deposited data

Results flagged for a closer look

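Hes1 and Rbpj had opposite differences for the same label on 2 backgrounds, each at least 1.5-fold. With 1 array behind each value, the difference between backgrounds was not tested. For both labels together this restates the 1.5-fold gap of the single-knockout arrays above both others, an order added after the values were seen. Of all genes that reached the floor on any array, 5.31% had that gap. The Bmi1 probe set goes against its label, and the Mel18 label is not borne out either. Pcgf2 lay too near the floor to show a loss, and where the deleted exons lie is not stated. For the Bmi1 label Hes1 was 1.10 higher on the wild-type background and lower (-0.70) on the Mel18-labelled background. For the Mel18 label Hes1 stood at 1.05 and -0.75. The difference between backgrounds was -1.80, which is the same sum of the 4 arrays for either label by construction. Rbpj stood at 0.68 and -0.60 for the Bmi1 label and at 0.69 and -0.59 for the Mel18 label, a difference of -1.27, which its 2 dimmer probe sets did not share (-0.28 and 0.0048). With arrays centred on the genes above the floor, the differences on the knockout-labelled backgrounds were -0.54 and -0.53 for Hes1 and -0.44 and -0.37 for Rbpj, so that neither gene was at 1.5-fold on both backgrounds.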

How the results depend on the processing

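Of 63 recomputed counts over 9 settings, 45 stayed within 1.5 times the value reported. Some of these could not change. All 10 members lay above the floor on all arrays, so leaving out the floor fixed their counts in advance. The order of the arrays does not depend on the fold rule or on 16 units added. Under the 1.5-fold rule the cut for the non-additive term was also 1.5-fold, and 7 members met it, where 33.3% of genes did. For the members past the 2-fold rule on the Bmi1-labelled array (1), the count was 3 with arrays centred on their medians, 4 under a 1.5-fold rule, and 0 with arrays centred on genes above the floor or quantile normalized. Members that passed were higher there, where 7.45% of all genes were with median centring and 17.8% under the 1.5-fold rule. On the Mel18-labelled array (1) the count was 3 under the 1.5-fold rule, where 11.8% of all genes were higher. It was 0 with centring on genes above the floor, quantile normalization or 16 units added. In the comparisons that follow, members that passed were lower, and the share of all genes lower was not recomputed. As reported at 2-fold it was 2.19% for DKO-labelled against wild type, 7.96% against Bmi1-labelled and 4.53% against Mel18-labelled. A 1.5-fold rule can only raise these shares, so the recomputed counts cannot be read against a background. On the DKO-labelled array (0) the count was 1 under the 1.5-fold rule. Between the DKO-labelled and Bmi1-labelled arrays (1) it was 0 with the mean over probe sets, 2 with median centring and 4 at 1.5-fold. Between the DKO-labelled and Mel18-labelled arrays (1) it was 0 with the mean over probe sets, centring on genes above the floor or 16 units added, and 4 at 1.5-fold. The cause of these shifts was not tested. Members with a non-additive term of -1 or less (5) numbered 3 with the mean over probe sets, and members with both single-knockout arrays above both others (8) numbered 5 with centring on genes above the floor. These last 2 counts were added as results after seeing the data.

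Over 6 settings 295 member differences were recomputed. Past 2-fold as reported were only Hes1 on both single-knockout arrays and Notch1 between the DKO-labelled and either single-knockout array. None of these changed direction, and they dropped under the rule 9 times. Of the differences under it, 3 passed it. Another 10 changed sign, each at most 0.14 in size as reported. Many differences could not change. Without cross-hybridising probe set types Hes6 fell out and the 9 members left kept their probe sets. With the mean over probe sets, the 4 members with 1 probe set kept their values. No paired analysis was possible because each group has 1 array.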
